A study of Homo sapiens with 15 samples.

Results

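The 4363 regions described here were all the consensus peaks on chromosome 7 of 2 active histone marks, H3K4me3 (1133 of 22572 peaks) and H3K27ac (3230 of 62195 peaks), together 4363 of the 84767 peaks of the series. They were measured by ChIP-seq in the human triple-negative breast cancer cell line MDA-MB-231 (Par) and in 2 sub-populations selected from it in mice, LM2, which colonises the lung, and BrM2, which colonises the brain. Each line and mark had 2 replicate libraries, which the study's methods call biological replicates. All lines were untreated and grown with 10% serum for 3 days before fixation in 1% formaldehyde, with no treatment that differed between lines. LM2 and BrM2 are each 1 selected population, so the replicates do not sample other metastatic populations. The chromosome was chosen because its marks were lower in LM2 and BrM2 than in Par, so the levels of LM2 and BrM2 against Par are given as a description with no test. Tests were made of single peaks, in BrM2 against LM2 and against the level of their neighbours.

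H3K4me3 marks the nucleosomes around the start sites of active genes, and H3K27ac marks active promoters and, away from start sites, active enhancers. A ChIP-seq count at a peak follows how much of the mark each copy of the DNA carries and how many copies the cells hold, and many breast cancer lines hold unequal numbers of chromosome arms. Chromosome 7 carries the receptors EGFR and MET, the kinases BRAF and CDK6, the HOXA cluster, the histone methyltransferases EZH2 and KMT2C, the secreted factors IL6 and SHH, and the caveolin genes, several of which are studied in breast cancer metastasis.

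Library totals in peaks ranged from 1994996 to 9839629 counts, and values are given as CPM, which divides a count by the library's total. Of the line's markers, the H3K4me3 promoter peaks of VIM and AXL, genes of mesenchymal cells, held 199 to 250 CPM for VIM and 115 to 329 CPM for AXL, whereas CDH1, the epithelial cadherin, held 2.01 to 8.03 CPM. The list held 9 line markers, other epithelial and luminal genes among them, and 8 had an H3K4me3 promoter peak. Values of only some are given here, so they do not settle how epithelial the line was. Of 9 markers of blood, endothelial, liver, astrocyte and muscle cells, 2 had an H3K4me3 promoter peak (GFAP, 2.3 to 9.53 CPM, and CDH15, 2.29 to 9.54 CPM), and 0 of these 2 passed the DESeq2 test against the level of neighbouring peaks, described below, in any comparison, 0 had an unadjusted p under 0.05 and 0 passed in edgeR. Of the 8 promoter peaks of line markers, 1 passed in LM2 and in BrM2 against Par, that of ESR1, the oestrogen receptor that triple-negative cells by definition lack, with 6.88 and 7.15 CPM (Par), 39.5 and 38.3 CPM (LM2) and 24.2 and 20.2 CPM (BrM2). The mark at ESR1 thus rose in the sub-populations of a line labelled triple-negative, by 2.28 on the log2 scale in LM2, while the call of BrM2 (1.44, DESeq2 adjusted p = 0.026) was lost in edgeR (adjusted p = 0.095). The H3K4me3 libraries numbered 2 were the deeper ones in each line (6714331 to 9839629 counts, against 3489607 to 4581712 for those numbered 1), and weak peaks were higher in replicate 2 than in replicate 1 of each line. Over the weakest tertile of all H3K4me3 peaks the median log2 ratio to the Par mean was −0.37 and 0.37 in the Par libraries, −0.35 and 0.50 in LM2 and −0.17 and 0.59 in BrM2, so same-line libraries differed by more than the lines did. The part of depth in this was not tested.

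The sequences behind 5 of the peaks that left the local level are shown first, read from the GRCh37 genome. For 3 H3K4me3 peaks the 300 bases before the start site are given 5′ to 3′ on the strand of the gene, with each GC box (GGGCGG on either strand, a motif of housekeeping and CpG island promoters) in capitals. They are the promoters of AMPH (chr7:38671021-38671320, minus strand), which gained the mark in both sub-populations, of SHH (chr7:155605158-155605457, minus strand), which gained it in LM2, and of KLF14 (chr7:130418968-130419267, minus strand), which lost it.
AMPH promoter: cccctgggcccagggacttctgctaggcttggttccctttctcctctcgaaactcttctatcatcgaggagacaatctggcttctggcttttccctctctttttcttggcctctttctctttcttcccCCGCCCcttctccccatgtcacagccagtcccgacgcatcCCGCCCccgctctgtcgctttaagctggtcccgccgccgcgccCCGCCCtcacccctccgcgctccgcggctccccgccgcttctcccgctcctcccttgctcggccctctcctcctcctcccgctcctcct
SHH promoter: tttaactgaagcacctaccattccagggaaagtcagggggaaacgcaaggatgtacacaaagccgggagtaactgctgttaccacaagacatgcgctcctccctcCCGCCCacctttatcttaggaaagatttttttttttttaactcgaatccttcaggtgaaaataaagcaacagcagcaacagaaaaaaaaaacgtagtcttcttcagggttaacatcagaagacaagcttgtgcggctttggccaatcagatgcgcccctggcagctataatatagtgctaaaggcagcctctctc
KLF14 promoter: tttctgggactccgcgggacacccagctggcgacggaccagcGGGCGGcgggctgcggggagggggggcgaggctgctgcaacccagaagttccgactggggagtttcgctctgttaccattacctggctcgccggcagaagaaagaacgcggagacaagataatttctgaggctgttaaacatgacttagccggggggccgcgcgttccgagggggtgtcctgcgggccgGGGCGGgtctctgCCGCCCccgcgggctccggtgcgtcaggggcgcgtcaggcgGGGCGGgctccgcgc
These held 3, 1 and 4 GC boxes, and a GC box was found in the same 300 bases of 470 of 921 chromosome 7 genes (51.0%). Both the promoters that gained the mark and the one that lost it thus held the motif. For 2 H3K27ac peaks away from start sites, 300 bases are given on the plus strand around the match to TGANTCA nearest to the peak centre. This pattern allows any middle base, so it is a loose form of TGA(C/G)TCA, the AP-1 site bound by FOS and JUN. Matches are in capitals and are called AP-1 sites here. The middle base is T in the PDE1C match shown and G in that upstream of EPHB6. They lie in an intron of PDE1C (chr7:31977690-31977989), higher in both sub-populations, and upstream of EPHB6 (chr7:142506977-142507276), lower in LM2.
PDE1C intron: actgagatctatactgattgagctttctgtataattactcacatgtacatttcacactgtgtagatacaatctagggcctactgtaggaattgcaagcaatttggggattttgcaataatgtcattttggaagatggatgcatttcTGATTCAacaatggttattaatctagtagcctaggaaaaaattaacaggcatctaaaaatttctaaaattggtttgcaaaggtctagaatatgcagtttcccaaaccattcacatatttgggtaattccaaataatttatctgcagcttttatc
EPHB6 intergenic: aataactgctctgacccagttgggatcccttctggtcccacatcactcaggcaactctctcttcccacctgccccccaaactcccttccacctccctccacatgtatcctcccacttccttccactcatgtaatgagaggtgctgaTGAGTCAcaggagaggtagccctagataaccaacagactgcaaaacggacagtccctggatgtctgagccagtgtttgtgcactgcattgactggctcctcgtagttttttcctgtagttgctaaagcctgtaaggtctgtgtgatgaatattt
The windows were placed on a site, so its presence there is by choice. The whole peaks held 10 sites in 7068 bp (PDE1C) and 14 in 9692 bp (upstream of EPHB6), which is 1.41 and 1.44 per kb. The 2508 H3K27ac peaks of the chromosome away from start sites held 2468 sites, or 0.512 per kb, and 1327 of them held none. The 95th percentile over peaks was 1.64 per kb, which neither reached. Both peaks were far longer than the median H3K27ac peak of the chromosome (1447 bp). Site density varies more in short peaks, so this percentile cannot say whether the 2 were unusual. In the central 300 bases of those 2508 peaks an AP-1 site was found in 409 (16.3%). It was found in 18 of the 63 that were higher (28.6%) and 1 of the 8 that were lower in LM2, and in 11 of the 68 that were higher (16.2%) and 6 of the 19 that were lower (31.6%) in BrM2. A match is a stretch of letters and no evidence that a factor was bound there.

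Of the H3K4me3 peaks of the chromosome, 55.3% lay within 2 kb of a start site of a protein-coding gene and 86.8% overlapped an H3K27ac peak. H3K27ac was the broader class, with 22.4% at promoters and 29.6% overlapping an H3K4me3 peak. H3K4me3 peaks were richer in G and C (median 55.6%) than H3K27ac peaks (45.6%), and the median lengths were 1569 and 1447 bp. Chromosome 7 held 5.02% of all H3K4me3 and 5.19% of all H3K27ac peaks. The long arm, taken from 60 Mb on, held 725 and 1884 of the peaks, and the short arm 408 and 1346.

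The long arm took a smaller share of the counts in both sub-populations than in Par. Of all H3K4me3 counts, the Par libraries had 3.58 and 3.495% on the long arm, the LM2 libraries 2.88 and 2.84% and the BrM2 libraries 2.63 and 2.61%. Of all H3K27ac counts, these shares were 3.43 and 3.36% in Par, 2.64 and 2.60% for LM2, then 2.46 and 2.42% for BrM2. In both marks the lines stood in the same order with no overlap of their libraries. The mean H3K4me3 share was 3.54 ± 0.0611% (SD, n = 2) in Par, 2.86 ± 0.0285% in LM2 and 2.62 ± 0.0194% in BrM2, or 0.809 and 0.740 of that of Par in the sub-populations. In H3K27ac the shares of LM2 and BrM2 were 0.770 and 0.718 of that of Par. With 2 libraries against 2 the smallest exact permutation p is 0.333, and the region levels are given with no test. Counts were not divided by input here, and a lower mark per DNA copy, fewer DNA copies per cell and a smaller part of the cells carrying the mark cannot be told apart.

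**Figure D1:**
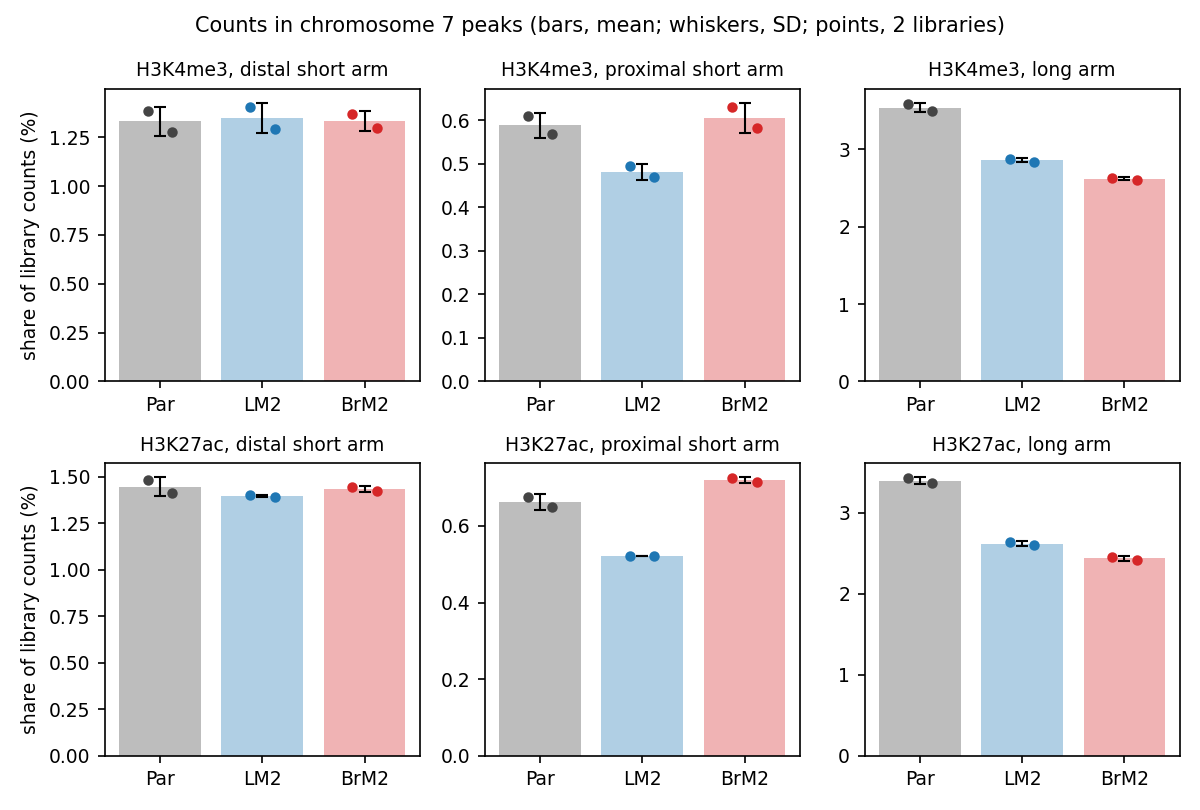
Share of each library's counts (%, y axis) on the distal short arm, the proximal short arm and the long arm of chromosome 7, for H3K4me3 and H3K27ac. Each point is a library, each bar the mean of 2 and each whisker the SD. On the long arm the H3K4me3 share was 3.58 and 3.495% in Par and 2.63 and 2.61% in BrM2, and on the proximal short arm LM2 alone lay below Par in both marks.

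The typical peak of the long arm moved with the sum. The median log2 ratio to the Par mean over the 1884 H3K27ac peaks was 0.03 and −0.03 in the Par libraries, −0.25 and −0.34 in LM2 and −0.43 and −0.49 in BrM2. Among the 725 H3K4me3 peaks it was −0.19 and 0.19 in Par, −0.43 and −0.20 for LM2, then −0.46 and −0.27 for BrM2. Each sub-population lay below both Par libraries in each mark, narrowly so for LM2 replicate 2 in H3K4me3. BrM2 lay below LM2 in H3K27ac by 0.17, with no overlap, whereas in H3K4me3 the libraries of the sub-populations overlapped. Within replicate numbers, treated as pairs though no label states a pairing, BrM2 was below LM2 both times. The difference of −0.09 became 0.05 without BrM2 replicate 1 and 0.09 without LM2 replicate 2, each of which breaks such a pair. On all other chromosomes the median log2 ratio was −0.00 in LM2 and 0.06 in BrM2 for H3K4me3, and 0.05 and −0.00 for H3K27ac. There BrM2 against LM2 was −0.07 in H3K27ac, also with no overlap, and 0.06 in H3K4me3, with overlap. A part of the 0.17 between the sub-populations in H3K27ac was thus not particular to the long arm.

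Along the long arm the lower level was general rather than set by a few places. Of the 20 windows of 5 Mb with at least 10 H3K27ac peaks, 20 had a median below 0 in LM2 (−0.63 to −0.16) and 20 in BrM2 (−0.71 to −0.29). In H3K4me3 the same held for 19 of 19 windows in LM2 (−0.65 to −0.12) and 19 of 19 in BrM2 (−0.82 to −0.19). The LM2 libraries lay below both Par libraries in 16 of 20 H3K27ac windows and 10 of 19 H3K4me3 windows, where 18.7% and 8.45% of the windows of the whole genome did. The BrM2 libraries did so in 20 of 20 and in 12 of 19, against 25.6% and 11.3% genome-wide. Since these contrasts chose the chromosome, nothing is read from that excess.

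**Figure D2:**
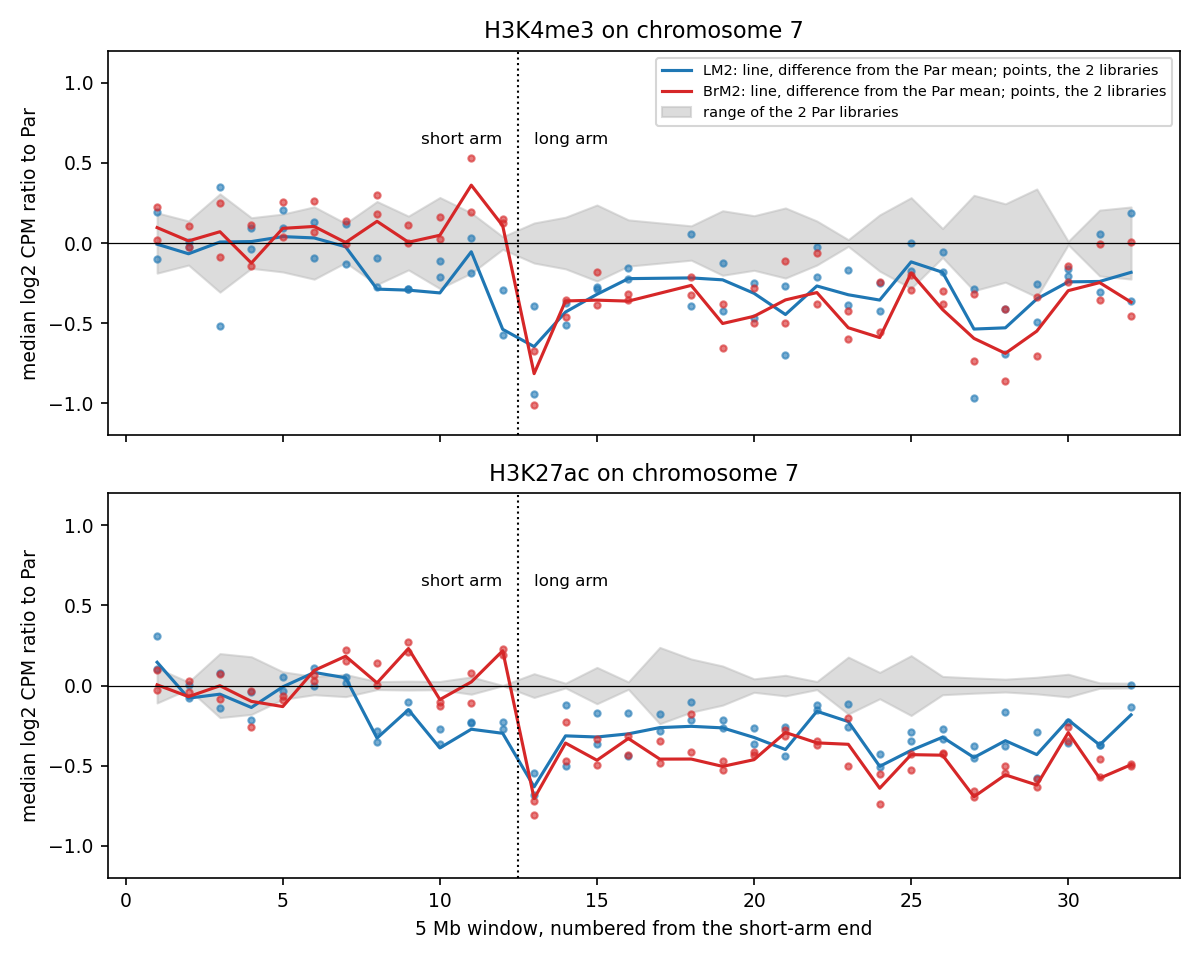
Median log2 CPM ratio to the Par mean (y axis) in consecutive 5 Mb windows of chromosome 7 (x axis, window number from the end of the short arm), for H3K4me3 and H3K27ac, with a point for each LM2 and BrM2 library and a line for the difference of the lines. The grey band is the range of the Par libraries. LM2 lies below 0 from window 8 on and BrM2 from window 13 on, the first of the long arm.

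The lowest window of the chromosome, in both lines and both marks, was that next to the centromere at 60 to 65 Mb. Its 26 H3K27ac peaks had medians of −0.07 and 0.07 in Par, −0.55 and −0.68 for LM2, then −0.72 and −0.81 for BrM2. Its 22 H3K4me3 peaks had −0.13 and 0.13 in Par, −0.94 and −0.40 for LM2, then −1.01 and −0.67 for BrM2. The window at 130 to 135 Mb, which holds KLF14 and PODXL, came next in BrM2 H3K27ac at −0.69 over 151 peaks, with −0.45 in LM2. The window at 115 to 120 Mb, with CAV1, CAV2 and MET, stood at −0.50 in LM2 and −0.64 in BrM2 over 96 H3K27ac peaks. At the end of the arm, 155 to 160 Mb, the lines parted: 103 H3K27ac peaks had 0.01 and −0.01 in Par, 0.01 and −0.13 for LM2, then −0.49 and −0.50 for BrM2. There LM2 replicate 1 was at the level of Par and LM2 replicate 2 below it, with a median difference of the line from Par of −0.18, while both BrM2 libraries were lower than all the others. The difference of BrM2 from LM2, −0.46, was the lowest of the chromosome in H3K27ac. The H3K4me3 libraries of that window overlapped, at −0.36 and 0.19 in LM2 and −0.45 and 0.01 in BrM2, with BrM2 the lower within each replicate number.

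The short arm was not of 1 piece. Its part from 35 to 60 Mb, a boundary set after the windows had been seen, was lower in LM2 but not in BrM2. H3K27ac counts between these positions, the proximal short arm, were 0.677 and 0.648% of the library in Par, 0.522 and 0.523% for LM2, then 0.725 and 0.714% for BrM2. H3K4me3 shares were 0.609 and 0.568% in Par, 0.495 and 0.469% for LM2, then 0.630 and 0.582% for BrM2. The LM2 libraries were below all the others in both marks. BrM2 had 1.38 times the H3K27ac share of LM2 and 1.26 times its H3K4me3 share, and within replicate numbers these ratios were 1.39 and 1.37, and 1.27 and 1.24. Against Par, BrM2 was higher in H3K27ac (1.09 times) and overlapped it in H3K4me3 (1.03 times), though it was higher within each replicate number.

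By the median peak, BrM2 exceeded LM2 on the proximal short arm by 0.35 in H3K27ac (426 peaks) and 0.39 in H3K4me3 (123 peaks). In all 5 windows from 35 to 60 Mb and in both marks, both BrM2 libraries lay above both LM2 libraries, where 26.3% of H3K27ac and 21% of H3K4me3 windows of the whole genome did. The window differences ran from 0.26 to 0.58 in H3K27ac and from 0.34 to 0.57 in H3K4me3. Of single peaks, 186 of 426 (43.7%) in H3K27ac and 60 of 123 (48.8%) in H3K4me3 had both BrM2 libraries above both LM2 libraries, against 20% and 19.5% of all peaks. The boundary was set from these windows, so nothing is read from either excess. The step on either side of the centromere was the sharpest in BrM2: over 53 H3K27ac peaks at 55 to 60 Mb its libraries stood at 0.23 and 0.19, and in the next window at −0.72 and −0.81. In LM2 the step lay between 30 to 35 Mb (0.02 and 0.05 in H3K27ac) and 35 to 40 Mb (−0.28 and −0.35).

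The distal short arm, up to 35 Mb, kept the level of Par in shares of counts. H3K4me3 shares were 1.38 and 1.28% in Par, 1.40 and 1.29% for LM2, then 1.37 and 1.29% for BrM2, overlapping in all comparisons. H3K27ac shares were 1.48 and 1.41% in Par, 1.40 and 1.39% for LM2, then 1.45 and 1.42% for BrM2, so that LM2 was 0.966 of Par with no overlap by a narrow margin. Window medians there lay from −0.14 to 0.15 in LM2 and from −0.13 to 0.18 in BrM2 for H3K27ac. The chromosome as a whole held 5.57 and 5.34% of H3K4me3 counts in Par, 4.78 and 4.60% for LM2, then 4.63 and 4.48% for BrM2. The sub-populations overlapped in that total, with BrM2 the lower within each replicate number, as BrM2 was lower than LM2 on the long arm and higher on the proximal short arm.

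On the long arm, promoter peaks were lower in both marks. The 413 H3K4me3 promoter peaks had medians of −0.09 and 0.09 in Par, −0.39 and −0.30 for LM2, then −0.49 and −0.40 for BrM2, while the libraries of the 312 H3K4me3 peaks away from promoters overlapped, at −0.25 in LM2 and −0.23 in BrM2. The 454 H3K27ac promoter peaks were at −0.43 and −0.53, and the 1430 others at −0.28 and −0.44. H3K27ac peaks that touched no H3K4me3 peak (1276), the class richest in enhancers, stood at −0.28 and −0.43. In LM2 the size of the difference moved with the height of the peak. The weakest tertile of long-arm H3K27ac peaks by mean level stood at −0.19, the middle at −0.30 and the strongest at −0.43, whereas in BrM2 the tertiles stood at −0.44, −0.45 and −0.50. Over all H3K27ac peaks of the genome the LM2 tertiles stood at 0.13, 0.09 and −0.04 in the same order. The trend in LM2 was thus not particular to the long arm. The values of weak peaks are held towards 0 by the pseudocount of 0.5 CPM, and its part in the trend was not tested.

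The window levels of the 2 marks were compared over peaks that did not overlap. Over 30 windows with at least 10 H3K4me3 peaks and 10 H3K27ac peaks clear of any H3K4me3 peak, the window medians of both marks had a Pearson r of 0.59 (Spearman rho 0.54) in LM2 against Par, 0.82 (0.83) in BrM2 against Par and 0.84 (0.68) in BrM2 against LM2. The windows are not independent, the libraries of each mark share a total, and the LM2 and BrM2 ratios share the Par libraries, so these are descriptions. In LM2 the likeness rested on fewer libraries, as r was 0.34 without Par replicate 2 and 0.28 and 0.73 within replicate numbers. For BrM2 against LM2 it was 0.69 and 0.69 within replicate numbers. Within the arms the likeness was weaker. Over 12 short-arm and 18 long-arm windows, r was 0.49 and 0.32 in LM2 against Par, −0.07 and 0.58 in BrM2 against Par and 0.80 and 0.54 in BrM2 against LM2.

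**Figure D3:**
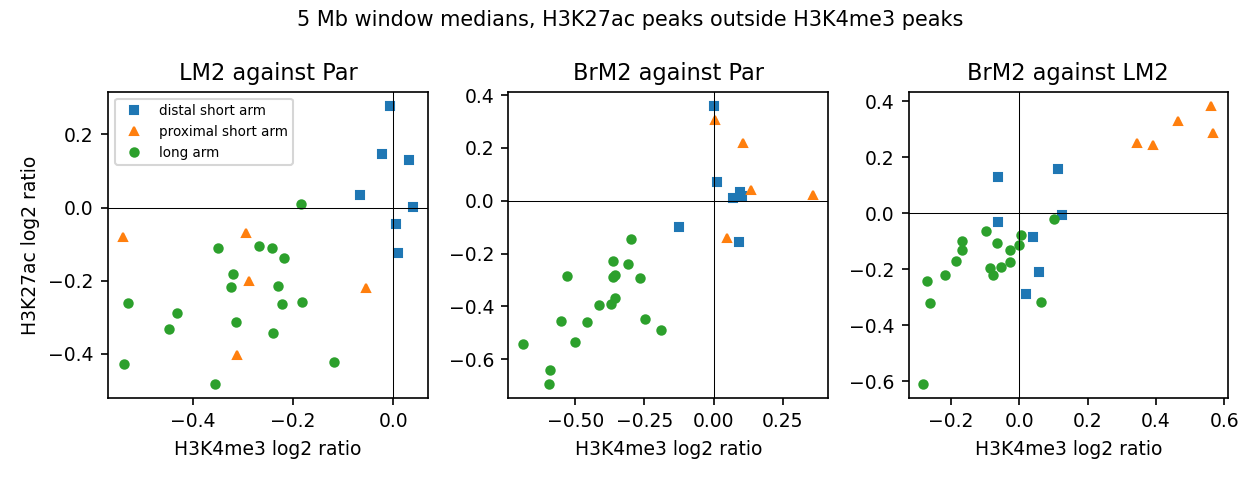
Window medians of H3K27ac peaks that touch no H3K4me3 peak (y axis, log2 ratio) against those of H3K4me3 peaks (x axis, log2 ratio) in 30 windows of chromosome 7, for LM2 against Par, BrM2 against Par and BrM2 against LM2, with the part of the chromosome marked. Pearson r was 0.59, 0.82 and 0.84, and in BrM2 against LM2 the proximal short arm stood apart in the upper right.

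When each peak was tested without regard to its neighbours (DESeq2 Wald test, Benjamini-Hochberg adjusted p under 0.05 over all peaks of a mark), 44 H3K27ac peaks of the chromosome were lower and 44 higher in LM2 than in Par, and 87 lower and 64 higher in BrM2, where 0.907% and 2.72%, and 1.67% and 3.62%, of all tested peaks were. In H3K4me3, 8 were lower and 12 higher in LM2, and 16 and 19 in BrM2, where 0.538% and 1.97%, and 0.791% and 2.82%, of all were. With the replicate number as a block the H3K4me3 counts rose to 172 lower and 49 higher in LM2 and 287 and 48 in BrM2, beside 5.49% and 8.9%, and 9.11% and 8.55%, of all peaks. In H3K27ac they became 116 and 54, and 169 and 74, beside 1.84% and 3.6%, and 2.99% and 5.14%. Of the lower H3K27ac peaks, 36 of 44 in LM2 and 81 of 87 in BrM2 lay on the long arm. Of all tested H3K27ac peaks of the chromosome, 1459 of 2509 and 1540 of 2636 lay there. Since these contrasts chose the chromosome, nothing is read from that difference. BrM2 against LM2, which did not choose the chromosome, gave 35 higher and 17 lower H3K27ac peaks, against 1.71% and 1.22% of all peaks. The proximal short arm held 16 and 2 of them, and 313 of the 2373 tested H3K27ac peaks of the chromosome. Its boundary was set after the windows had been seen, so nothing is read from that share. BrM2 against LM2 gave 10 higher and 12 lower H3K4me3 peaks, against 2.05% and 1.13% of all. With the block these H3K4me3 counts were 68 and 138, against 8.99% and 13% of all.

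Peaks that left the level of their neighbours were found after the median ratio of each 5 Mb window had been removed from each library. Windows with under 10 peaks of mean count of at least 20 took the median of the chromosome arm instead. H3K27ac then had 72 higher and 10 lower of 2512 peaks tested in LM2, and 85 higher and 21 lower of 2626 in BrM2. Of all H3K27ac peaks, 2.45% were higher and 0.452% lower in LM2, and 2.96% and 0.832% in BrM2, so the chromosome's share was close to that of the genome. H3K4me3 had 15 higher and 4 lower of 1015 peaks in LM2 and 21 and 9 of 1111 in BrM2, where 1.63% and 0.417%, and 2.48% and 0.443%, of all peaks were. BrM2 against LM2 gave 14 higher and 14 lower H3K27ac peaks (1.03% and 0.616% of all) and 8 higher and 12 lower H3K4me3 peaks (1.88% and 0.786%). Of the H3K27ac peaks called lower without regard to neighbours, 34 of 44 in LM2 and 67 of 87 in BrM2 were no longer lower against them. Conversely, 28 of the 72 peaks higher than their neighbours in LM2 and 29 of the 85 in BrM2 had not been called before. The H3K27ac windows of the long arm all had medians below 0, and removing such a median raises the values there. The direction of both changes on that arm was thus set by the method.

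These counts depend on having both libraries of a line. Without Par replicate 1, Par replicate 2, LM2 replicate 1 or LM2 replicate 2 the H3K27ac count of LM2, 82 in both directions, became 23, 27, 22 and 33, and without BrM2 replicate 1 it was 54. That of BrM2, 106, became 39 and 35 without a Par library, 25 and 42 without a BrM2 library and 63 without LM2 replicate 1. For BrM2 against LM2 the 28 H3K27ac calls became 2 and 7 without a BrM2 library, 7 and 7 without an LM2 library and 18 without Par replicate 1. The H3K4me3 count of LM2, 19, became 7, 7, 12 and 8 without the Par and LM2 libraries in that order. That of BrM2, 30, became 16, 13, 11 and 9 without the Par and BrM2 libraries. For BrM2 against LM2, 20 calls became 9, 12, 9 and 7 without the LM2 and BrM2 libraries. With the replicate block the 3 H3K4me3 counts were 82, 87 and 93, beside 7.96%, 8.88% and 10.5% of all peaks, and that of H3K27ac in BrM2 against LM2 was 48, beside 2.78%. Of the H3K27ac peaks that rose, 9 of 72 (12.5%) in LM2 and 17 of 85 (20%) in BrM2 lay at a promoter, beside 27.3% and 26.3% of the peaks not called, a difference that was not tested.

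**Figure D4:**
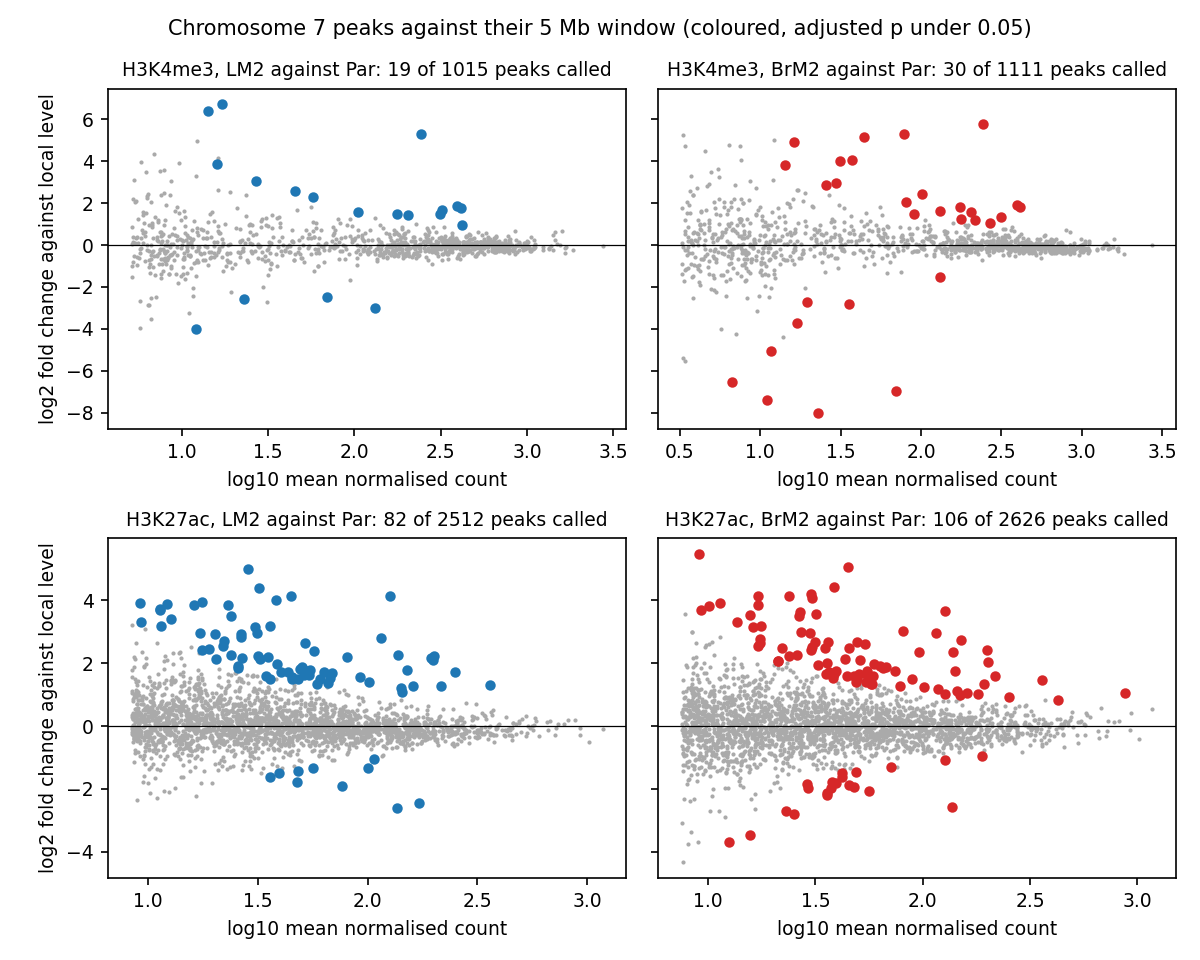
Log2 fold change of each tested chromosome 7 peak against the local level (y axis) by the log10 of its mean normalised count (x axis), for LM2 and BrM2 against Par and both marks, with called peaks in colour and the others in grey. Most called peaks lie above 0, such as 72 of 82 H3K27ac peaks in LM2, and called peaks are found at low and high counts.

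The promoters of AMPH, FSCN1 and DENND2A gained H3K4me3 in both sub-populations. AMPH, which encodes amphiphysin, a membrane-bending protein of endocytosis, gained the most. Its promoter peak (chr7:38668947-38671419) held 0.860 and 1.64 CPM in Par libraries, 52.1 and 46.7 in those of LM2 and 86.9 and 68.8 in those of BrM2, so that both sub-populations stood far above Par. Against the local level it was higher by 5.31 ± 0.50 (SE) on the log2 scale in LM2 (adjusted p = 6.2e-22) and by 5.76 ± 0.50 in BrM2 (adjusted p = 2.5e-26), and both calls held without any 1 library. FSCN1 encodes fascin, which bundles actin in filopodia and invasive protrusions. Its promoter peak (chr7:5631016-5636686), on the distal short arm, held 21.8 and 31.3 CPM (Par), 92.3 and 94.2 CPM (LM2) and 94.5 and 96.8 CPM (BrM2). LM2 exceeded the local level by 1.77 ± 0.31 (adjusted p = 3.4e-06) and BrM2 by 1.82 ± 0.31 (adjusted p = 7.7e-07), with no call lost without 1 library. The sub-populations had nearly the same level.

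DENND2A, whose product activates RAB GTPases of membrane traffic, had 2 peaks with different patterns. At its promoter (chr7:140338345-140341621) H3K4me3 was 30.1 and 30.5 CPM in Par libraries, 87.4 and 87.4 in those of LM2 and 65.5 and 86.4 in those of BrM2, which put LM2 1.88 ± 0.29 (adjusted p = 8e-08) and BrM2 1.89 ± 0.29 (adjusted p = 3.7e-08) above the local level. A second peak in an intron of the gene (chr7:140351084-140353296) held 0.860 and 1.49 CPM (Par), 0.689 and 1.52 CPM (LM2) and 24.9 and 39.8 CPM (BrM2). The mark was thus near the background in Par and LM2 and present in BrM2. BrM2 exceeded LM2 by 4.98 ± 0.57 (adjusted p = 3.6e-15) and Par by 5.28 ± 0.61 (adjusted p = 5.8e-15).

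COBL, an actin nucleation factor, rose in BrM2. Its promoter peak (chr7:51383134-51385149) held 13.8 and 16.1 CPM in Par libraries, 16.5 and 26.3 in those of LM2 and 51.9 and 60.4 in those of BrM2. BrM2 was higher than Par by 1.81 ± 0.36 (adjusted p = 7.7e-05; 0.056 without BrM2 replicate 2) and than LM2 by 1.23 ± 0.35 (adjusted p = 0.022). The call against LM2 was lost in edgeR (adjusted p = 0.086) and without Par replicate 2, LM2 replicate 1 or either BrM2 library (adjusted p up to 0.68). Without regard to neighbours BrM2 exceeded LM2 by 1.31 at COBL, and the median of its 5 Mb window, of 15 H3K4me3 peaks, was 0.57. The 1.23 can thus hold a part of the level of the window. CLDN4 went the other way from COBL. It encodes a claudin of tight junctions, and its peak (chr7:73244932-73247659) held 43.6 and 71.3 CPM (Par), 2.75 and 7.42 CPM (LM2) and 9.60 and 19.5 CPM (BrM2). It was lower in LM2, at −3.02 ± 0.49 (adjusted p = 3.4e-07), a call that held without any 1 library. The value of BrM2 was −1.53 ± 0.47 (adjusted p = 0.04), lost in edgeR (0.19) and without either Par library or BrM2 replicate 1 (up to 0.767). The difference between the sub-populations, 1.49, had an adjusted p of 0.086, and of 7.5e-05 with the replicate block.

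Among signalling genes, SHH, the secreted hedgehog ligand at the end of the long arm, was higher in LM2. Its H3K4me3 promoter peak (chr7:155600207-155605363) held 25.5 and 43.9 CPM in Par libraries, 95.5 and 116 in those of LM2 and 22.3 and 35.9 in those of BrM2, so that LM2 stood above both other lines, which overlapped. LM2 exceeded Par by 1.65 ± 0.39 (adjusted p = 0.0025) and BrM2 was below LM2, at −1.54 ± 0.39 (adjusted p = 0.0048). Both calls were lost in edgeR (adjusted p = 0.11 for each), the first also without Par replicate 1 or LM2 replicate 2 (up to 0.192) and the second without LM2 replicate 2 or BrM2 replicate 1 (up to 0.301). A peak near RNF32 (chr7:156409009-156409903), inside the divergent non-coding gene RNF32-DT, had the same pattern, with 4.3 and 5.66 CPM (Par), 21.3 and 25.4 CPM (LM2) and 1.75 and 3.10 CPM (BrM2). BrM2 was lower than LM2, at −2.92 ± 0.54 (adjusted p = 1.2e-05), without loss when any 1 library was left out. LM2 against Par was 2.28 ± 0.52 (adjusted p = 0.0014), with 0.072 in edgeR and up to 0.216 without either Par library or LM2 replicate 2. CAMK2B, a subunit of a calcium-calmodulin-dependent kinase on the proximal short arm (chr7:44364413-44365715), held 8.31 and 12.4 CPM in Par libraries, 2.75 and 5.28 in those of LM2 and 12.9 and 25.7 in those of BrM2. Its value in BrM2 against LM2, 1.90 ± 0.54 (adjusted p = 0.021), was called only with all libraries or without Par replicate 1 and was 0.15 in edgeR and up to 1 without the others.

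H3K27ac peaks at PRKAR1B, PDE1C and CALN1 were higher in both sub-populations. PRKAR1B encodes a regulatory subunit of protein kinase A. H3K27ac at a peak over an annotated start site of the gene (chr7:640260-645960) was 3.42 and 2.87 CPM (Par), 46.0 and 69.1 CPM (LM2) and 30.1 and 49.1 CPM (BrM2). It was higher by 4.14 ± 0.43 (adjusted p = 3.2e-18) and 3.65 ± 0.44 (adjusted p = 1.5e-13). Whether this is the main start site of PRKAR1B was not examined. PDE1C encodes a calmodulin-dependent phosphodiesterase that breaks down cAMP and cGMP. The peak in its intron whose sequence is shown above (chr7:31973833-31980900) held 12.8 and 8.87 CPM in Par libraries, 29.3 and 40.7 in those of LM2 and 80.5 and 69.7 in those of BrM2. The lines stood in that order without overlap. LM2 was 1.78 ± 0.33 (adjusted p = 1.9e-05) and BrM2 2.72 ± 0.33 (adjusted p = 2.7e-13) above Par, and BrM2 against LM2 was 0.94 ± 0.30 with an adjusted p of 0.085, or 0.022 with the replicate block. Another PDE1C intron peak (chr7:32153219-32158241) held 6.61 and 4.96 CPM (Par), 36.4 and 38.6 CPM (LM2) and 51.7 and 42.6 CPM (BrM2) (2.80 ± 0.36, adjusted p = 2.2e-11, and 2.96 ± 0.37, adjusted p = 1.5e-12). CALN1 encodes a calcium-binding protein of neurons. Its intron peak (chr7:71286822-71291058) held 6.61 and 4.44 CPM in Par libraries, 25.9 and 15.2 in those of LM2 and 38.0 and 27.1 in those of BrM2, with 2.184 ± 0.43 in LM2 (adjusted p = 7.5e-05; 0.129 without LM2 replicate 1) and 3.02 ± 0.43 in BrM2 (adjusted p = 1.9e-09).

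**Figure D5:**
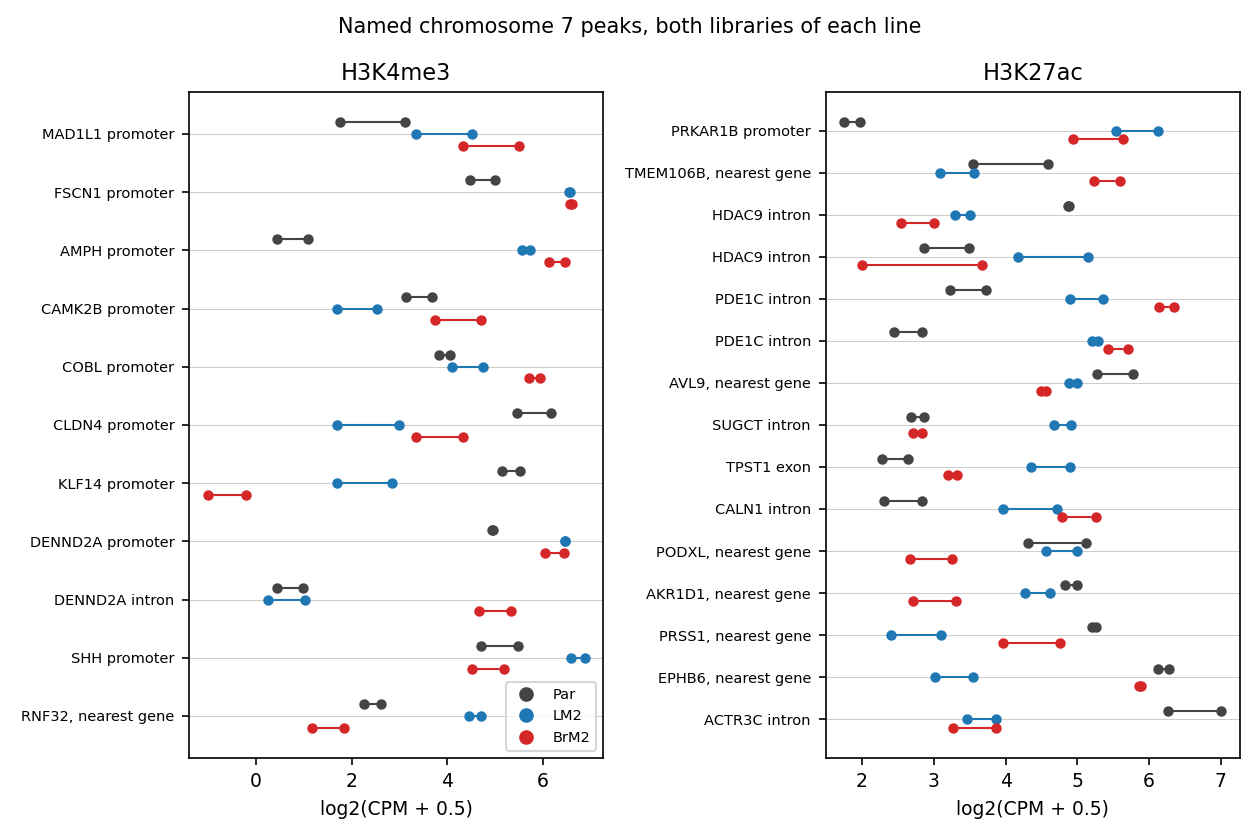
Level of the named chromosome 7 peaks (x axis, log2(CPM + 0.5)) in order along the chromosome (y axis), for H3K4me3 and H3K27ac, with a point for each library and a bar joining the 2 libraries of a line. The AMPH promoter is far higher in both sub-populations than in Par, and the peak nearest to EPHB6 is low in LM2 alone.

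Of genes of transcription and chromatin, KLF14, a Krüppel-like zinc finger factor with a single-exon gene, lost H3K4me3. Its promoter peak (chr7:130418268-130419541) held 45.3 and 35 CPM (Par), 2.75 and 6.71 CPM (LM2) and 0 and 0.372 CPM (BrM2), whose libraries had 0 and 3 counts. Without regard to neighbours, BrM2 was at least 81.0-fold lower than Par (DESeq2 adjusted p = 4.2e-12) and at least 9.14-fold lower than LM2 (adjusted p = 0.00044). These folds include the lower level of the window in BrM2. Against the local level the DESeq2 adjusted p was 6.2e-10 and 0.00066, and the second call was lost without BrM2 replicate 2. LM2 against Par was −2.47 ± 0.52 (adjusted p = 0.00038), but 0.071 with the replicate block, 0.066 in edgeR and 0.401 without Par replicate 1. MAD1L1, of the mitotic spindle checkpoint, had a peak at an internal start site (chr7:1977789-1980899) with 2.87 and 8.19 CPM (Par), 9.64 and 22.3 CPM (LM2) and 19.4 and 44.6 CPM (BrM2). In each line the second replicate was more than the first, and the order of the lines held within each replicate number. BrM2 was 2.41 ± 0.57 above Par (adjusted p = 0.0019), with 0.12 in edgeR and up to 0.636 without Par replicate 1 or BrM2 replicate 2. With the block LM2 was called as well (adjusted p = 0.00034), and so was BrM2 against LM2 (adjusted p = 0.013).

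HDAC9, a class IIa histone deacetylase next to TWIST1, held 2 H3K27ac peaks that moved in opposite directions. The first intron peak (chr7:18837080-18839520) held 29.0 and 28.7 CPM in Par libraries, 10.9 and 9.31 in those of LM2 and 5.35 and 7.52 in those of BrM2, with no overlap between Par and the others. Its BrM2 value was −2.05 ± 0.45 (adjusted p = 0.00046; up to 0.385 without Par replicate 2 or BrM2 replicate 1) and its LM2 value −1.35 ± 0.40 (adjusted p = 0.032), which was lost without any 1 of the 6 libraries (up to 0.661). The second (chr7:18976948-18978875), for which the start of TWIST1 was the nearest, held 10.7 and 6.79 CPM (Par), 35 and 17.6 CPM (LM2) and 12.2 and 3.51 CPM (BrM2). LM2 was 1.78 ± 0.47 above Par (adjusted p = 0.01; up to 0.859 without either Par library or LM2 replicate 1), and BrM2 against LM2, −1.70 ± 0.49 (adjusted p = 0.038), was lost without any 1 library. TWIST1, a driver of epithelial-mesenchymal transition, had no promoter peak of either mark.

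Peaks at SUGCT and TPST1 were highest in LM2. SUGCT encodes a mitochondrial CoA transferase, and its intron peak (chr7:40185846-40188528) held 5.93 and 6.79 CPM in Par libraries, 29.6 and 25 in those of LM2 and 6.63 and 6.02 in those of BrM2. LM2 was higher than Par by 2.37 ± 0.41 (adjusted p = 2.5e-06), and BrM2 against LM2 was −2.65 ± 0.43 (adjusted p = 1.2e-06), while Par and BrM2 overlapped. TPST1, a tyrosine sulphotransferase of the Golgi, held 4.33 and 5.74 CPM (Par), 29.3 and 19.9 CPM (LM2) and 8.67 and 9.52 CPM (BrM2) at an exon (chr7:65819928-65823087). LM2 was 2.64 ± 0.43 above Par (adjusted p = 4.2e-07), and BrM2 against LM2 was −1.43 ± 0.42 (adjusted p = 0.043, lost without any 1 library). A peak 49 kb from TMEM106B, a lysosomal membrane protein gene (chr7:12196740-12201536), was high in BrM2 instead, with 23.7 and 11.2 CPM in Par libraries, 11.3 and 7.98 in those of LM2 and 47.7 and 37.1 in those of BrM2. BrM2 exceeded LM2 by 2.16 ± 0.37 (adjusted p = 5.2e-06; 0.0779 without BrM2 replicate 1).

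Strong H3K27ac losses lay on the distal long arm. A peak at the T cell receptor beta locus, over the segment TRBV30 and upstream of EPHB6 (chr7:142502465-142512156), held 77.3 and 69.4 CPM (Par), 7.60 and 11.2 CPM (LM2) and 58.9 and 57.6 CPM (BrM2). LM2 alone was low. It was −2.45 ± 0.32 against Par (adjusted p = 2.3e-11), and BrM2 exceeded it by 2.71 ± 0.32 (adjusted p = 4.5e-13). Its neighbour over the D and J segments of that locus, nearest to PRSS1 (chr7:142490297-142495962), followed it with 37.9 and 36.3 CPM in Par libraries, 8.06 and 4.79 in those of LM2 and 26.5 and 15.0 in those of BrM2. LM2 was −1.92 ± 0.42 against Par (adjusted p = 0.00058; up to 0.116 without Par replicate 1 or LM2 replicate 2), and BrM2 exceeded LM2 by 1.70 ± 0.43 (adjusted p = 0.0093; up to 1 without LM2 replicate 2 or BrM2 replicate 1). At EPHB6 itself, a kinase-dead ephrin receptor, H3K4me3 was near the background in all libraries, at 0.230 to 3.57 CPM. ACTR3C, an actin-related gene, had an intron peak (chr7:150003617-150011917) that was low in both sub-populations, at 76.2 and 128 CPM (Par), 10.5 and 14.1 CPM (LM2) and 9.18 and 14.0 CPM (BrM2) (−2.60 ± 0.36, adjusted p = 3.3e-10, and −2.57 ± 0.38, adjusted p = 7.9e-09).

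In 3 further H3K27ac peaks BrM2 was the low line, and each call was lost when a library was left out. A peak near PODXL, a sialomucin of the cell surface (chr7:131579153-131582601), over a long non-coding RNA, held 34.4 and 19.3 CPM in Par libraries, 23.3 and 31.4 in those of LM2 and 5.86 and 9.02 in those of BrM2. BrM2 against LM2 was −1.71 ± 0.45 (adjusted p = 0.014; up to 0.909 without either library of LM2 or BrM2), and BrM2 against Par was called only with the replicate block (adjusted p = 0.047). A peak near AVL9 in the pseudogene DPY19L1P1 (chr7:32706836-32711912), whose reads could be shared with related copies, held 54.3 and 38.1 CPM (Par), 31.3 and 29.0 CPM (LM2) and 23.2 and 22.1 CPM (BrM2). A peak near AKR1D1, a steroid reductase gene (chr7:137870046-137873477), held 31.5 and 27.9 CPM in Par libraries, 24.0 and 18.9 in those of LM2 and 9.43 and 6.02 in those of BrM2. Their BrM2 values were −1.096 ± 0.32 (adjusted p = 0.023) and −1.29 ± 0.41 (adjusted p = 0.049), and both were lost without any 1 of the 6 libraries.

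Some genes gained H3K27ac at several peaks together. The spans and sums given for these genes were set by the called peaks and include them. They are above the local level in part by that choice, so nothing is read from them. The share of such genes over the genome is not given here. Of 18 H3K27ac peaks whose nearest gene was PDE1C, 8 rose against the local level in BrM2 and 6 in LM2. All 15 peaks between the outermost called ones (chr7:31973833-32205398), the 8 and 6 called ones included, were above the local level in each line. Their medians were 2.37 in BrM2 and 1.65 in LM2. The 8 peaks together held 65.5 and 42.3 CPM (Par), 180 and 194 CPM (LM2) and 356 and 294 CPM (BrM2). At AMPH 4 of 5 peaks rose in BrM2 and 3 in LM2, and the 4 held 3.19 and 3.39 CPM in Par libraries, 28.7 and 33.5 in those of LM2 and 66.3 and 65.7 in those of BrM2, so H3K27ac followed the H3K4me3 of this promoter.

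PTPRN2, a receptor-type phosphatase gene of secretory granules at the end of the long arm, was strongest in the LM2 libraries. In LM2 6 of 16 peaks rose, and 13 of the 13 in their span, these 6 included, were above the local level. The 6 peaks held 55.4 and 47.2 CPM (Par), 218 and 173 CPM (LM2) and 85.1 and 74.7 CPM (BrM2). BrM2 gained as well, with 3 of the 16 peaks called higher than Par. All 6 peaks in the span of these 3, the 3 included, were above the local level, with a median of 2.97. CALN1 had 3 of 3 peaks called in both lines, with 16.0 and 13.1 CPM in Par libraries, 54.6 and 35.9 in those of LM2 and 68.3 and 53.6 in those of BrM2. MNX1, a homeobox gene of motor neurons and pancreas, had 3 of 5 peaks higher in LM2, from 1.82 and 1.31 CPM in Par to 21.1 and 14.6, with 14.5 and 15.0 in BrM2. Of 28 peaks nearest to EGFR, 3 rose in BrM2, while the 18 peaks of that span had a median of −0.16 against the local level, and 5 of the 18 were above it. DENND2A (3 and 4 peaks in LM2 and BrM2), MYL10 (3 in LM2), KCND2 (3 in BrM2) and SEC61G (3 in BrM2) were the others with at least 3 called peaks.

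The genes of the chromosome were also read by lists of function at H3K4me3 promoter peaks. Over all 627 promoter peaks of the chromosome the median log2 ratio was −0.25 in LM2 and −0.38 in BrM2 without regard to neighbours, beside 0.01 and −0.02 over all peaks tested. Against the neighbours it was −0.04 and −0.08, beside −0.03 and −0.02. Of these 627 peaks 9 were called higher and 3 lower in LM2, 13 and 5 in BrM2, and 3 and 5 in BrM2 against LM2. Over all H3K4me3 peaks tested, 1434 of 20383, 1876 of 22134 and 1743 of 21259 had an unadjusted DESeq2 p under 0.05 in the same order. Calls are few over all peaks too, so 0 calls in lists of this size is no result about the lists. Housekeeping genes had 28 promoter peaks, 28 of which were below 0 in LM2 and 26 in BrM2, as were 461 and 499 of the 627, with medians of −0.43 and −0.41. Against the local level DESeq2 called 0 of them, edgeR 0 and the replicate block 3 in LM2 and 0 in BrM2, and 1 in LM2 and 0 in BrM2 had an unadjusted p under 0.05. For YWHAG, a 14-3-3 protein gene, values were 211 and 164 CPM (Par), 149 and 123 CPM (LM2) and 119 and 114 CPM (BrM2). Chromatin genes (15 peaks) had medians of −0.26 and −0.54 and 0 calls against the local level in DESeq2 and edgeR, with 0 at an unadjusted p under 0.05, and with the replicate block 1 in LM2 and 0 in BrM2. EZH2, which writes the repressive mark on lysine 27, held 421 and 282 CPM in Par libraries, 338 and 226 in those of LM2 and 285 and 224 in those of BrM2. KMT2C, which methylates lysine 4 at enhancers, held 220 and 175, 190 and 147, and 147 and 131 in the same order. In both, the sub-populations were lower than Par within each replicate number.

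Of 22 promoter peaks of receptors and kinases, DESeq2 and edgeR called 0 in LM2 or BrM2 against Par, with 1 in each at an unadjusted p under 0.05 and 1 in BrM2 with the replicate block, and DESeq2 called 1 (CAMK2B) in BrM2 against LM2. MET, the receptor of hepatocyte growth factor, held 87.1 and 111 CPM (Par), 56.0 and 73.7 CPM (LM2) and 71.4 and 83.0 CPM (BrM2), below Par in each line. Its log2 ratios of −0.59 and −0.42 became −0.23 and −0.08 against the local level. BRAF, a kinase of the MAPK cascade, held 187 and 138 CPM in Par libraries, 128 and 106 in those of LM2 and 98.4 and 89.2 in those of BrM2, at −0.45 and −0.87, or −0.12 and −0.23 locally. CDK6, a cell cycle kinase, held 269 and 301, 203 and 263, and 190 and 223 CPM, at −0.27 and −0.54, or −0.02 and 0.00 locally. EGFR, on the proximal short arm, held 291 and 218 CPM (Par), 249 and 194 CPM (LM2) and 304 and 251 CPM (BrM2), which follows the level of that part of the chromosome.

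Of 17 promoter peaks of secreted and matrix genes, SHH was higher in LM2 and SFRP4, a WNT inhibitor, in BrM2, with 8.31 and 8.04 CPM in Par libraries, 16.1 and 13.4 in those of LM2 and 31.6 and 18.1 in those of BrM2 (1.48, adjusted p = 0.026; 0.092 in edgeR and up to 0.898 without any 1 library but LM2 replicate 2). IL6 held 21.5 and 35, 16.5 and 32.5, and 17.9 and 36.4 CPM, with all lines overlapping. COL1A2 had no H3K4me3 promoter peak. Of 21 peaks of actin, membrane and adhesion genes, FSCN1 was higher and CLDN4 lower in each line. CAV1, the main protein of caveolae, held 171 and 207 CPM in Par libraries, 85.8 and 138 in those of LM2 and 101 and 137 in those of BrM2. Its ratios of −0.75 and −0.74 became −0.39 and −0.40 against the local level, called only with the replicate block (adjusted p = 0.043 and 0.03).

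Of 18 peaks of transcription factors outside the HOXA cluster, KLF14 was lower in both lines, and KLF14 and MLXIPL, a glucose-responsive factor, were lower in BrM2 than in LM2. MLXIPL held 39.3 and 25.9 CPM (Par), 45.4 and 34.1 CPM (LM2) and 18.8 and 13.0 CPM (BrM2) (−1.29, adjusted p = 0.034; 0.13 in edgeR and up to 0.993 without any 1 library but Par replicate 2). Of 3 HOXA, 19 transport and metabolism, 9 antiviral and immune and 9 near-identical-copy promoter peaks, DESeq2 and edgeR called 0 in any comparison, and 2, 3 and 0 had an unadjusted p under 0.05 in LM2, BrM2 and BrM2 against LM2. With the replicate block 3, 3 and 1 were called. Reads of the last list can fall on more than 1 copy, so its values are uncertain. HOXA13 held 46.1 and 48.1 CPM in Par libraries, 37.9 and 49.1 in those of LM2 and 27.5 and 38.3 in those of BrM2. The replicate block raised the list members called from 4 to 23 in LM2, from 4 to 18 in BrM2 and from 4 to 17 in BrM2 against LM2. Over all H3K4me3 peaks it raised the calls from 417 to 1623, from 648 to 1965 and from 566 to 2321. Nothing is thus read from the rise about the lists. At H3K27ac promoter peaks, ACTR3C in LM2 (−1.04, adjusted p = 0.047) and IGFBP1 (0.83, adjusted p = 0.029) and UBE2H (−0.95, adjusted p = 0.037) in BrM2 were the list members called. The calls of ACTR3C and UBE2H were lost without any 1 library (adjusted p up to 0.622 and 0.872), and that of IGFBP1 without any but LM2 replicate 2 (up to 0.451).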

How the data were processed

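H3K4me3 and H3K27ac were profiled by ChIP-seq in Par, LM2 and BrM2, with 2 replicates per line and mark; 3 input samples were not analysed here. Per the labels and the study's methods, the authors trimmed reads with Trimmomatic 0.32, aligned them to hg19 with Bowtie2 2.3.4.3, marked duplicates with Picard 2.18.21 and called broad consensus peaks per mark on the merged reads of 6 libraries with MACS2 2.1.2. The deposited values are raw counts, which the authors took over the consensus peaks with featureCounts 1.6.0 after extending reads by 150 bp, not normalized. All 12 count columns matched a sample and 0 were unmatched. Peaks called on pooled libraries exist in all lines, and intervals of broad peaks average over their length.

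From these counts CPM was computed per library total in peaks (1994996 to 9839629 counts). Levels are medians of log2(CPM + 0.5) minus the Par mean, which understates the change of low peaks. Arms were split at 60 Mb. Tests used DESeq2 1.42.0 (R 4.3.3; Wald test, Benjamini-Hochberg over all peaks of a mark, threshold 0.05) on the 6 libraries of a mark with cell line as the term. Against the local level, size factors were multiplied by each library's median ratio in the peak's 5 Mb window (peaks of mean count of at least 20, windows of at least 10 such peaks). In other windows the median of the chromosome arm was used. Alternatives were edgeR 4.0.16, a count filter, other windows, pseudocounts and scalings, each library left out and the replicate number as a block. The scripts were tested on simulated data with known changes in LM2, called against the local level. Of 140 H3K4me3 and 111 H3K27ac calls, 25 and 13 fell on unchanged peaks. Of 50 peaks changed by 1 on the log2 scale in each direction, 12 were called in H3K4me3 and 7 in H3K27ac. A count of 0 calls thus does not exclude changes of that size. Labels number the replicates 1 and 2 in each line. Same-numbered libraries deviated together, with r between lines of 0.633, 0.590 and 0.639 in H3K4me3 and 0.227, 0.286 and 0.247 in H3K27ac. The numbers were therefore treated as pairs, though no label states a pairing. In every line replicate 2 was the deeper library in H3K4me3 and replicate 1 in H3K27ac. The part of depth in this likeness was not tested. The block is given where it changed a call of a named peak or moved a count by over 1.5 times.

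Genes came from GENCODE 44 lifted to GRCh37, and a promoter peak lies within 2 kb of a start site of a protein-coding gene. Named peaks (mean normalized count 50 or more, groups not overlapping) were the 4 largest and 4 smallest changes called against the local level in LM2 and BrM2, and the 3 largest and 3 smallest in BrM2 against LM2. Also named were the lowest and highest windows, genes of the lists by H3K4me3 count and a set of genes by name. Some peaks and genes that this rule names are not reported here, though they stay in the counts of peaks and lists. The lists were receptors and kinases, secreted and matrix, actin, membrane and adhesion, transcription factors outside HOXA, HOXA, chromatin, housekeeping, transport and metabolism, antiviral and immune, and near-identical copies. The chromosome, its members and the lists were chosen with earlier results of these data known. Whether replicates came from separate cultures is stated by the methods only as biological replicates, and p-values measure the spread between them.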

Additional observations from a re-analysis of the deposited data

Results flagged for a closer look

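The following differences between BrM2 and LM2 passed the test of the difference itself (DESeq2, against the local level, adjusted p under 0.05) and are given as values on the log2 scale. BrM2 was higher in H3K4me3 at the intron peak of DENND2A (4.98) and at the promoters of CAMK2B (1.90) and COBL (1.23). It was lower in H3K4me3 at the KLF14 promoter (a fitted −4.50, which depends on the fit since BrM2 had 0 and 3 counts), near RNF32 (−2.92) and at the SHH promoter (−1.54). In H3K27ac it was higher upstream of EPHB6 (2.71), near TMEM106B (2.16) and near PRSS1 (1.70). It was lower in H3K27ac in the SUGCT intron (−2.65), near PODXL (−1.71) and in the HDAC9 intron closest to TWIST1 (−1.70). The libraries without which a call was lost are given beside each peak in the report.

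On the proximal short arm from 35 to 60 Mb, every BrM2 library lay above every LM2 library, by 0.39 in H3K4me3 and 0.35 in H3K27ac. The boundary was set after the windows had been seen, and this difference was not tested.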

How the results depend on the processing

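Long-arm levels kept their direction under every pseudocount, scaling and filter run. On the short arm the H3K4me3 level of BrM2 against Par, 0.06, was −0.02 with TMM scaling. Values moved for H3K27ac on the long arm with a pseudocount of 2 CPM (LM2 −0.26, BrM2 −0.36) and on the short arm by summed counts (BrM2 against LM2 0.167, beside 0.08). Without 1 library in turn the long arm ran from −0.43 to −0.20 (LM2), −0.50 to −0.26 (BrM2) and −0.22 to 0.09 (BrM2 against LM2) in H3K4me3, and from −0.34 to −0.25, −0.49 to −0.43 and −0.21 to −0.13 in H3K27ac. The short arm ran from −0.19 to 0.05, −0.02 to 0.22 and 0.04 to 0.28 in H3K4me3, and from −0.12 to −0.01, −0.04 to 0.05 and 0.05 to 0.14 in H3K27ac.

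Counts of called peaks moved most. They are given for LM2, BrM2 and BrM2 against LM2 in that order. Without regard to neighbours, 20, 35 and 22 H3K4me3 and 88, 151 and 52 H3K27ac peaks were called. With edgeR the H3K4me3 count of LM2 was 13 and the H3K27ac counts 184, 245 and 88. With the replicate block they were 221, 335 and 206, and 170, 243 and 92. Against the local level, with 19, 30 and 20, and 82, 106 and 28 calls, edgeR gave 8, 15 and 10 in H3K4me3, and 139 in LM2 and 52 in BrM2 against LM2 in H3K27ac. The replicate block gave 82, 87 and 93 in H3K4me3 and 48 in BrM2 against LM2 in H3K27ac. Without 1 library in turn the plain counts ran from 5 to 17, 12 to 29 and 9 to 20 in H3K4me3, and 20 to 62, 25 to 108 and 1 to 32 in H3K27ac. The local counts ran from 7 to 18, 9 to 28 and 7 to 17, and from 22 to 59, 25 to 79 and 2 to 20.

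List members called (4, 4 and 4 in H3K4me3, 1, 2 and 0 in H3K27ac) were 2, 2 and 1 in H3K4me3 and 2 in H3K27ac of LM2 with edgeR, and 23, 18 and 17, and 2, 4 and 1, with the replicate block. In H3K27ac they were 2, 1 and 1 with the arm median, and for BrM2 1 with 10 Mb and 0 with 2 Mb windows. Without 1 library they ran from 2 to 4, 2 to 4 and 1 to 3 in H3K4me3, and were 0, 0 to 1 and 0 in H3K27ac. The likeness of the marks, r = 0.59, 0.82 and 0.84, was 0.923 for BrM2 and 0.904 for BrM2 against LM2 with 10 Mb windows, and 0.764 and 0.613 with 2 Mb windows. It ran from 0.34 to 0.62, 0.60 to 0.83 and 0.67 to 0.88 without 1 library. Of 468 values of the 39 named calls under alternatives, 402 kept their call and 66 lost it, of which 7 were with edgeR, 1 with the replicate block (KLF14 in LM2) and 1 each with 10 Mb and 2 Mb windows. The block ended no other of these calls. The cause of these changes was not tested, except that a fit with 1 library fewer has fewer residual degrees of freedom, and a line left with 1 library was assumed to vary like the others.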
